A study of Mus musculus with 3 samples.

Results

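The SOCS genes encode suppressors of cytokine signalling, and all 8 members listed for the mouse family (Cish and Socs1 to Socs7) were read in sorted blood-forming stem cells after gamma irradiation. They were listed by gene name, with earlier results of these data known, and each had 1 probe set among the 23185 named genes of the table. The cells were long-term haematopoietic stem cells from mouse bone marrow, sorted as negative for lineage markers, Flk2 and CD48 and positive for Kit, Sca and CD150. After a night in serum-free Stemspan medium they received 0, 0.02 or 2.5 Gy, and RNA was taken 2 h later. Every group therefore shares the sort and the culture, strain and age were not stated in the labels, and each group is 1 array with no replicate. A difference below is thus a difference between single arrays, with no test and no p-value. In bulk RNA, fewer cells of a type and less RNA per cell cannot be told apart.

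Cytokines such as thrombopoietin, interleukins and interferons bind receptors that carry JAK kinases, and the JAKs activate STAT transcription factors. STATs switch on many genes, among them some of the SOCS genes themselves. The SOCS proteins then bind the receptor or the JAK through an SH2 domain and recruit, through their C-terminal SOCS box, an elongin-cullin ubiquitin ligase, so the pathway limits its own output. In blood stem cells this pathway carries survival and self-renewal signals.

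Of the classical feedback members, Cish, Socs1 and Socs3 are shown with the DNA at or just before their annotated starts. STAT binding in such DNA is a known way for cytokines to induce some of these genes. Of the 8 members, 4 had a window in the RefSeq promoter table (GRCm38.p6), which spans 250 bases before to 50 after 1 annotated start. Socs2 was not among these 4. The windows were searched on both strands for the STAT motif TTCNNNGAA, called GAS, and for GAAANNGAAA, a core of the interferon response element, and matches are in capitals. The sequences are on the gene's strand, 5′ to 3′.
Socs3, 250 bases before the start, chr11:117969367-117969616, minus strand: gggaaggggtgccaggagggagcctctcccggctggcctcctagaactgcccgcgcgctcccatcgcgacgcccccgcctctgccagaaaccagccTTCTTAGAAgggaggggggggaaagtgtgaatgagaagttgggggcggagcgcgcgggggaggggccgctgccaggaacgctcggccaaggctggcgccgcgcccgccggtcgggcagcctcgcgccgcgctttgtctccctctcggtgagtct
Socs1, 250 bases before the start, chr16:10785537-10785786, minus strand: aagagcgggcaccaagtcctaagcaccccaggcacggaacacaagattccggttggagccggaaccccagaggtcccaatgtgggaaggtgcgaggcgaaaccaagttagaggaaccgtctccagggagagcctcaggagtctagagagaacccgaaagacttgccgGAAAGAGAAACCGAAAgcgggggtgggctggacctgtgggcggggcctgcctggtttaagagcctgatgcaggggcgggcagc
Cish, the site at the start, chr9:107296654-107296683, plus strand: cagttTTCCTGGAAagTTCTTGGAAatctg
The Cish window held 2 GAS matches, which began at base 1 and base 12 of the annotated transcript. Socs3 held 1 GAS match, which began 154 bases before the start. Socs1 held no GAS match and 2 interferon element matches that overlap each other. The Socs4 window held neither motif. Among all 32851 windows of the table, 8.30% held at least 1 GAS match and 0.457% at least 2, while 3.44% held the interferon element and 0.225% at least 2 of it. A match is a run of letters and does not show that a factor bound there.

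Cish and Socs1 to Socs3 are the members best known as cytokine-induced feedback genes. Values are the authors' log2 values, in the order unirradiated, 0.02 Gy and 2.5 Gy. Socs3 (Entrez gene 12702), which restrains signalling from the interleukin-6 receptor family and the G-CSF receptor, was at 4.78, 4.83 and 4.80. Its level was the flattest of the family, with a range over the arrays of 0.06. Socs1 (12703), the main brake on interferon signalling, was at 5.06, 4.91 and 4.75. It was highest without irradiation and lowest at the high dose, a difference of −0.32 on the log2 scale. Of the 1159 genes in its level bin, 1 of 20 bins by mean level, 30.5% differed by at least as much, so this is an ordinary difference between these arrays. Socs2 (216233), a target of STAT5 that limits growth hormone signalling, was at 6.09, 5.91 and 5.90. Both irradiated arrays were lower by less than 0.2 on the log2 scale, and 53.5% of genes of like level were at least as far from 0 at the high dose. Cish (12700), also a STAT5 target, was at 3.89, 4.33 and 4.23. Both irradiated arrays were higher, by 0.44 and 0.34, but every value lay below the level minimum of 4.55, the median of the named genes' mean levels. Of genes of like level, 19.8% and 24.4% differed at least as much in those comparisons.

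Socs4 to Socs7 have longer N-terminal regions and act largely on receptor tyrosine kinases. Socs6 (54607), which binds activated KIT and FLT3, was at 5.22, 5.52 and 3.71. The high-dose array was low against both others, and its value lay below the level minimum. The difference was −1.50 from unirradiated (2.83-fold lower) and −1.81 from the low dose (3.50-fold lower), while the low dose was 0.31 higher than unirradiated. Of 11593 genes past the level minimum on the mean of the arrays, 15 had a difference as low or lower at 2.5 Gy against 0 Gy and 10 against 0.02 Gy, with Socs6 counted in each. In its own level bin of 1159 genes no other gene was as low in either comparison, and 4 genes, Socs6 included, were as far from 0. The robust SD of the differences in that bin was 0.28 and 0.30 on the log2 scale. Olfactory and vomeronasal receptor genes, genes of smell and pheromone sensing, were read with no level minimum. Of these 1354 genes, 5 (0.369%) were as low or lower at 2.5 Gy against 0 Gy and 2 (0.148%) against 0.02 Gy. Among genes past the level minimum the percentages were 0.129% and 0.0863%. Single probe sets of receptor genes thus reached this size, but these sets of genes were not matched in level.

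Socs4 (67296), a regulator of the EGF receptor, was at 5.46, 5.01 and 4.92. Both irradiated arrays were lower, by 0.45 and 0.54 on the log2 scale. At the high dose 5.09% of genes of like level had a difference as low or lower, and 10.5% were as far from 0 in either direction. Socs5 (56468), which also acts on the EGF receptor and on interleukin-4 signalling, was at 6.07, 5.80 and 5.57. The order was the same, with differences of −0.27 and −0.49, and 16.1% of genes of like level were as far from 0 at the high dose. Socs7 (192157), which binds the adaptor NCK and insulin receptor substrates, was at 4.31, 4.62 and 4.56. Both irradiated arrays were higher, by 0.30 and 0.25, in a probe set whose mean lay below the level minimum.

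**Figure D1:**
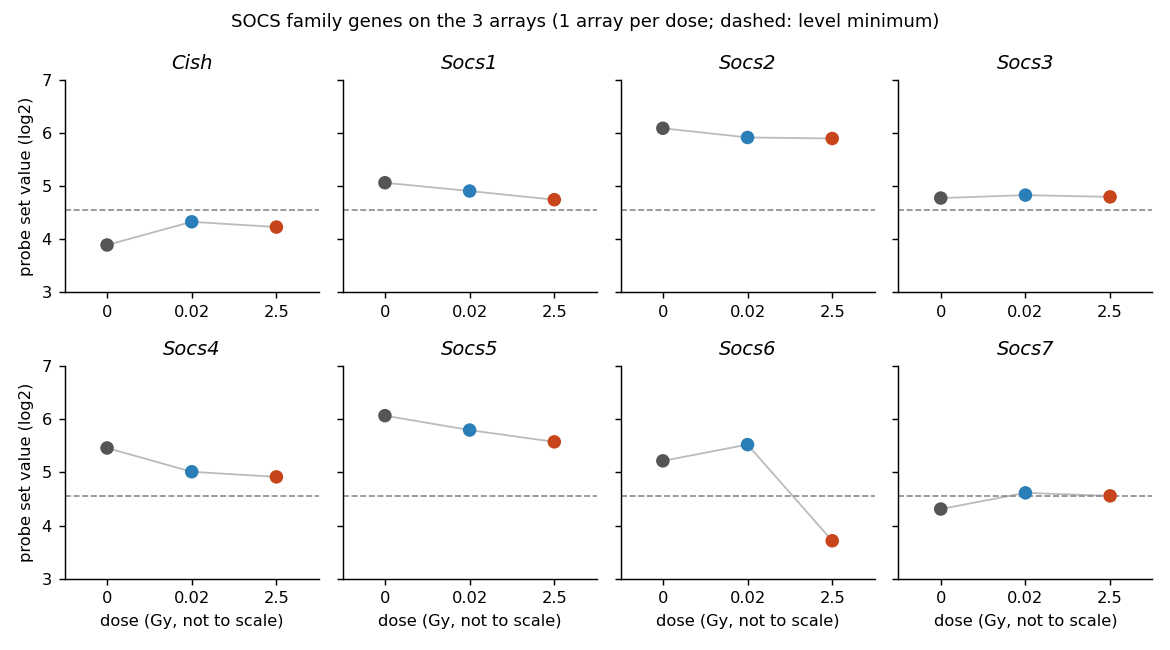
Log2 value of the 8 SOCS family genes (vertical axis) on the array of each dose (horizontal axis, 0, 0.02 and 2.5 Gy, not to scale), 1 point per array, with the level minimum of 4.55 dashed. Socs6 drops from 5.52 at 0.02 Gy to 3.71 at 2.5 Gy, whereas Socs3 lies between 4.78 and 4.83.

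Of the 8 members, 6 passed the level minimum (Socs1 to Socs6), and Cish and Socs7 did not. At 2.5 Gy against 0 Gy, 5 of these 6 were lower, against 46.4% of all genes past the minimum, and the median difference was −0.41 against 0.02 for all genes. In this comparison 1 member, Socs6, was at least 2-fold lower, where the percentage of all genes was 0.578%, and 0 were at least 2-fold higher, against 1.15%. Without Socs6, a choice made after its value was seen, the median of the other 5 was −0.32. With all 8 members and no level minimum, 5 were lower, against 53.0% of all named genes. The median was then −0.26 against −0.02 for all named genes, since Cish and Socs7 were both above 0.

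At 0.02 Gy against 0 Gy the members split. Socs1, Socs2, Socs4 and Socs5 were lower and Socs3 and Socs6 higher, so 4 of 6 were lower against 45.6% of all genes. The median was −0.16 against 0.04. Cish and Socs7, below the minimum, were higher, so that over all 8 members 4 were lower and 4 higher, against 52.2% of all named genes lower, and the median was −0.050. No member past the minimum was 2-fold lower or higher, where 1.14% and 1.33% of all genes were. This comparison shares the unirradiated array with the one before, so a high or low value there enters both.

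The comparison of 2.5 Gy with 0.02 Gy does not use the unirradiated array. Both of its arrays also enter the comparisons above, so it is not independent of them. A low 2.5 Gy array or a high 0.02 Gy array would enter every difference in it. All 6 members past the minimum, and Cish and Socs7 too, were lower at the high dose, against 50.4% of all genes past the minimum. For Socs2, Socs3, Socs7 and Cish the difference was −0.02, −0.03, −0.06 and −0.10, which is small beside a robust SD of 0.29 to 0.35 among genes of like level. For Socs4, Socs1 and Socs5 it was −0.10, −0.16 and −0.22, and at least 49.8% of genes of like level were as far from 0. Socs6 was the 1 member at least 2-fold lower, against 1.06% of all genes, and 0 were 2-fold higher, against 1.44%. It was also at least 2-fold below both other arrays, as were 15 of 11593 genes (0.129%).

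**Figure D2:**
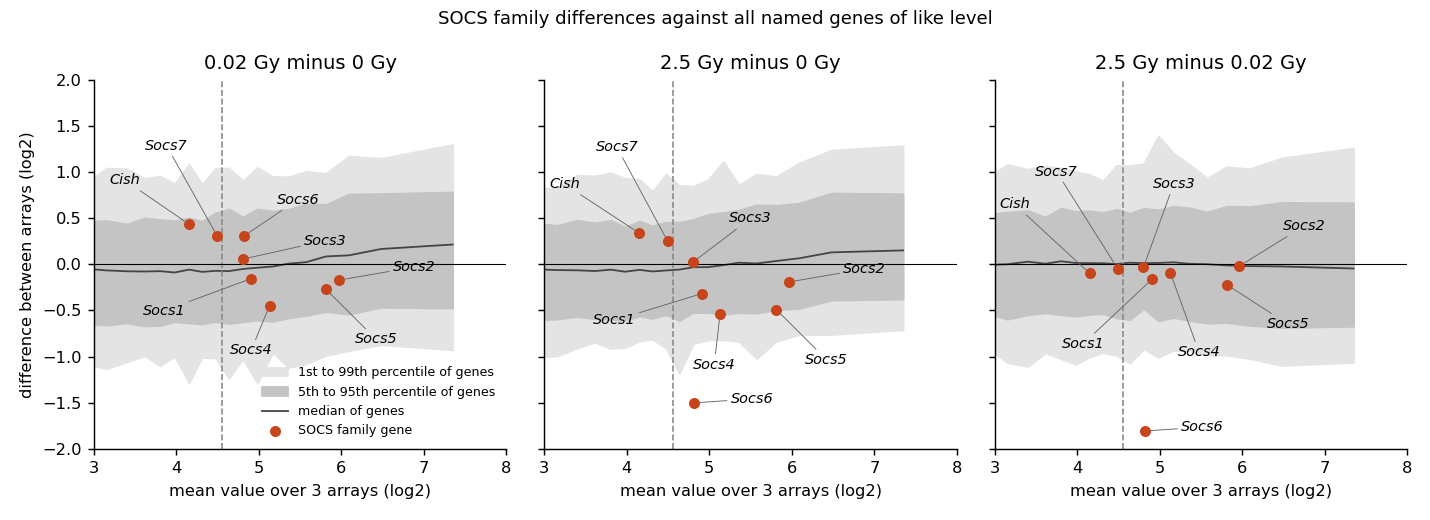
Difference between 2 arrays (vertical axis, log2) against the mean value over the 3 arrays (horizontal axis, log2) for the SOCS family genes (points), with the 1st to 99th and 5th to 95th percentiles and the median of all named genes in level bins as bands and a line. Socs6 lies under the lighter band in both comparisons with the 2.5 Gy array, at −1.50 and −1.81, and all other members lie within it.

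Socs1, Socs2, Socs4 and Socs5 had the same order of arrays, highest without irradiation and lowest at 2.5 Gy. These are 4 of the 6 members past the minimum, and 13% of all genes past it had that order. Socs6 did not, since its low-dose value was the highest of its 3. The direction of every member in every comparison was the same in the deposited values, after quantile normalization, after median centring and after loess. Under these 4 scalings the Socs6 difference at 2.5 Gy against 0 Gy ran from −1.50 to −1.45 and that of Socs2 at 2.5 Gy against 0.02 Gy from −0.04 to −0.001. For all genes past the minimum, median centring moved the median at 0.02 Gy against 0 Gy from 0.04 to 0.11, and 37.6% were then below 0.

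**Figure D3:**
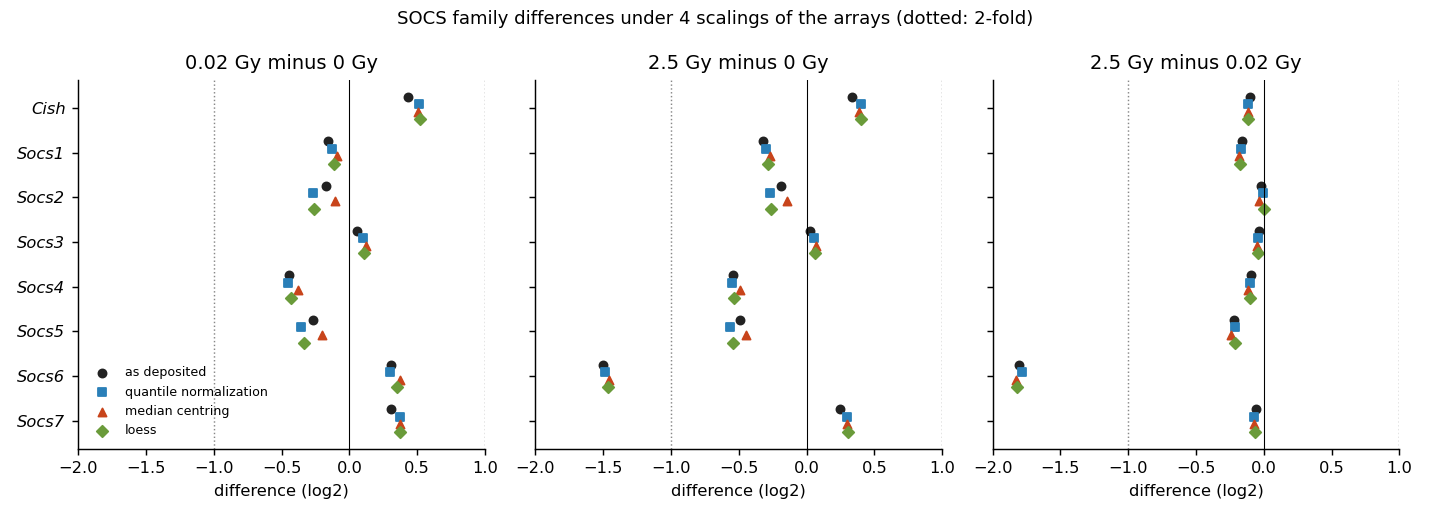
Difference between 2 arrays (horizontal axis, log2) for each SOCS family gene (rows) in the deposited values, after quantile normalization, after median centring and after loess (marker shapes), with dotted lines at 2-fold. The 4 markers of a gene stay on 1 side of 0 in each panel, and Socs6 passes 2-fold under all of them in both comparisons with the 2.5 Gy array.

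The genes around the SOCS proteins were read from lists, in order of their place in the pathway. Counts here are of members past the level minimum. Of all genes past it, 1.14% were at least 2-fold lower and 1.33% higher at 0.02 Gy against 0 Gy. At 2.5 Gy these percentages were 0.578% and 1.15% against 0 Gy, and 1.06% and 1.44% against 0.02 Gy. A short list with no member past 2-fold is therefore ordinary. Among the ligands, 6 of 25 measured genes passed the level minimum, and none was 2-fold different in any comparison. Flt3l, the ligand of FLT3, was at 6.21, 6.72 and 6.97, the list's largest difference from unirradiated at 2.5 Gy. Il10 was at 4.81, 4.65 and 5.07, Il12a at 5.61, 6.08 and 5.85, and Osm at 4.83, 4.66 and 4.68. Among 23 of 32 measured receptors none was 2-fold different between the irradiated and the unirradiated arrays. Il6st, the signalling chain shared by the interleukin-6 family and a target of SOCS3, was at 5.02, 6.01 and 5.91. Ifngr1, the interferon-gamma receptor chain, was at 5.51, 5.84 and 6.28. Il21r was lower on both irradiated arrays (5.15, 4.57 and 4.48), and Csf2rb, the chain shared by the receptors for interleukin-3, interleukin-5 and GM-CSF, was low at the high dose (7.14, 7.27 and 6.56). Csf2rb2, close in sequence to Csf2rb and outside the naming rule, was the 1 receptor past 2-fold, at −1.06 at 2.5 Gy against 0.02 Gy (6.50, 7.41 and 6.36); how far the 2 probe sets measure shared sequence was not tested. Kit and Flt3, whose products Socs6 binds, were at 8.58, 8.78 and 8.50 and at 4.60, 4.95 and 4.93, so neither was 2-fold different where Socs6 was.

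Of the 4 JAK kinases, Jak2, which serves the thrombopoietin receptor, was at 6.21, 7.01 and 6.43, highest at the low dose. Jak1 was at 7.58, 7.84 and 7.66, Jak3 at 5.13, 5.03 and 5.14, and Tyk2 at 4.49, 4.72 and 4.89. None was 2-fold different. Of 6 STAT genes, Stat5b, which with Stat5a carries thrombopoietin signals and drives Cish and Socs2, was at 4.79, 5.79 and 5.62. The low-dose difference just reached 2-fold, and the high-dose difference was 0.83. Stat4 was at 5.33, 6.01 and 5.99, with the unirradiated array again apart. Stat5a was at 6.33, 6.22 and 6.14, Stat3 at 6.90, 6.97 and 6.87, Stat2 at 4.90, 4.80 and 4.63, and Stat6 at 6.14, 6.63 and 6.23. All 6 STAT genes were lower at 2.5 Gy than at 0.02 Gy, by at most 0.40 on the log2 scale, where 50.4% of all genes were lower.

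Among STAT target genes, 17 of 21 measured passed the minimum. At 2.5 Gy against 0 Gy the median was −0.00, with 8 above 0 and 9 below, where 53.4% of all genes were above 0. In this comparison 2 members passed 2-fold in the upward direction, against 1.15% of all genes. They were Myc (6.06, 6.62 and 7.67) and Junb (5.62, 6.15 and 6.90), which many other signals also induce. Gbp2, an interferon-induced GTPase, was lower (6.86, 6.50 and 6.21), and Bcl6 was at 4.77, 4.74 and 5.19. Cish, Socs1, Socs2 and Socs3 were not 2-fold different at 2.5 Gy against 0 Gy. Few genes were, with 0.578% of all genes at least 2-fold lower and 1.15% higher. Cish lay below the level minimum on all 3 arrays.

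Of the other inhibitors of the pathway (phosphatases, PIAS and CBL proteins and adaptors), all 15 passed the minimum, and none was 2-fold different in any comparison. Their median was −0.01 at 2.5 Gy and 0.11 at 0.02 Gy against 0 Gy. Both depended on the scaling: the first turned to 0.04 after median centring, and the second was 0.022 after quantile normalization, 0.0085 after loess and 0.17 after median centring. Ptprc, the phosphatase CD45, was at 7.04, 7.41 and 7.58, Pias1 at 6.35, 6.99 and 6.72, Pias4 at 5.07, 5.07 and 5.52, and Pias2 at 6.39, 6.68 and 6.13. The elongin-cullin ligase that the SOCS box recruits had 7 of 9 genes past the minimum. At 2.5 Gy against 0 Gy 6 of the 7 were above 0, against 53.4% of all genes, with a median of 0.24 (0.44 with no minimum and 0.46 at the 75th percentile). At 0.02 Gy 6 of 7 were above 0, against 54.2%, with a median of 0.34 (0.53 at the 75th percentile). Highly expressed genes as a whole were higher on both irradiated arrays. In the top level bin, with a median level of 7.35, the median difference was 0.15 at 2.5 Gy and 0.21 at 0.02 Gy. Ligase genes such as Elob and Rnf7 lie at such levels, and others, such as Eloc, lie lower. After loess the ligase median was 0.27 at 2.5 Gy and 0.29 at 0.02 Gy against 0 Gy. After quantile normalization it was 0.25 and 0.29. The part of expression level in the ligase medians was not tested. Rnf7, the RING subunit of the ligase, was at 8.25, 9.16 and 8.71, and Arih2, a ligase that works with cullin-5, at 6.25, 6.96 and 6.95. Elob and Eloc, the elongins that hold the SOCS box, were at 7.81, 7.69 and 8.29 and at 4.90, 5.17 and 4.65. No member of the ligase past the minimum was 2-fold different. Ube2f, the NEDD8-conjugating enzyme for cullin-5, failed the minimum on its mean and is named after its values were seen: it was at 2.86, 2.80 and 4.75, above the minimum on the 2.5 Gy array alone.

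**Figure D4:**
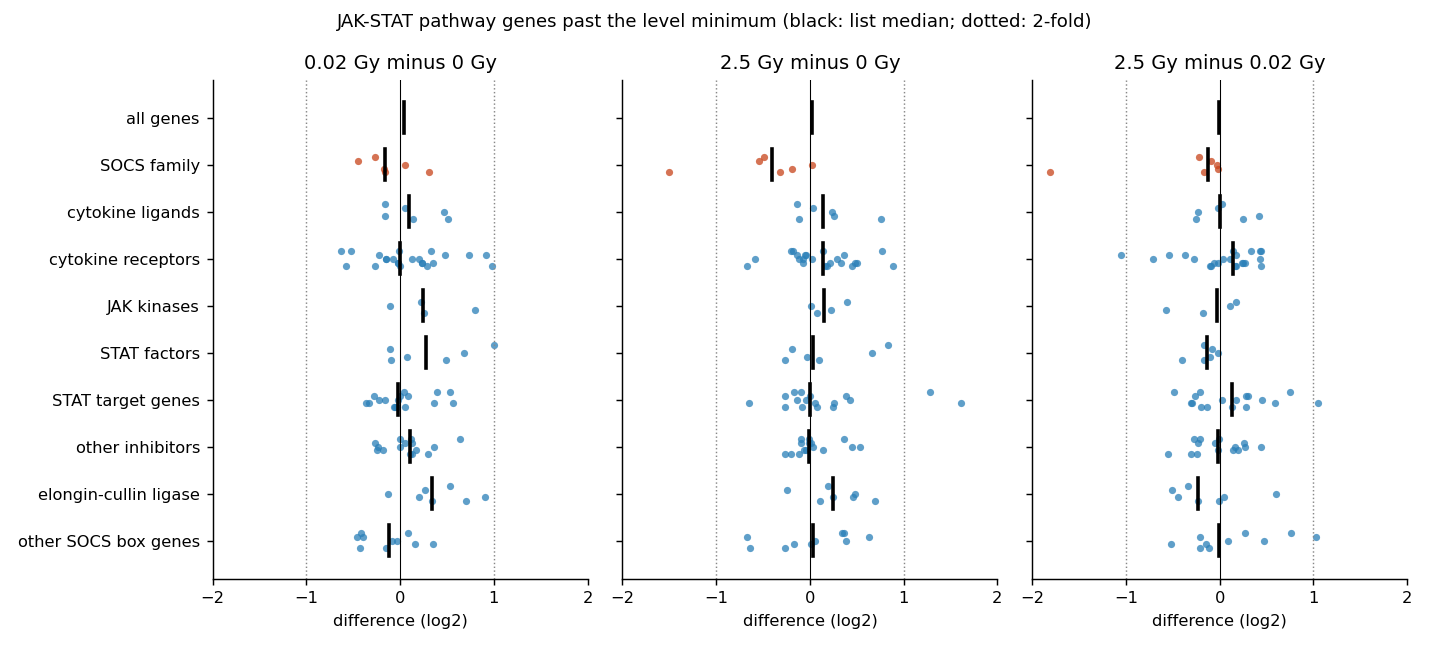
Difference between 2 arrays (horizontal axis, log2) for each gene past the level minimum in 9 lists of the pathway (rows, 1 point per gene), with list medians in black, the median of all genes in the top row and dotted lines at 2-fold. At 2.5 Gy against 0 Gy the SOCS family has the lowest list median, −0.41, and Socs6 is the one gene of these lists past 2-fold lower.

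The labelled cell type was checked against marker lists. Of 10 measured stem cell genes 9 passed the minimum, and the one that did not was Cd48, of a marker selected against (3.62, 3.31 and 3.40). Flt3, which encodes the other selected-against marker, Flk2, was among the 9 that passed. It was at 4.60, 4.95 and 4.93, against the minimum of 4.55. Both irradiated arrays were higher than the unirradiated one, by 0.35 and 0.33 on the log2 scale. Slamf1, which encodes CD150, was at 5.24, 4.75 and 4.84. Of B cell, T and NK cell and erythroid markers, 2 of 5, 1 of 6 and 1 of 3 passed it, and of myeloid markers 7 of 9. The mean log2 level of the 9 myeloid markers was 5.06, 5.45 and 5.50, and 3 of them (S100a9, S100a8 and Ly6c2) exceeded their unirradiated value by 2-fold or more at 2.5 Gy, against 1.15% of all genes. At 0.02 Gy S100a8 and S100a9 did so too, by 1.30 and 1.12 on the log2 scale, against 1.33%. Across the 7 markers past the minimum the median difference was 0.70 at 2.5 Gy and 0.56 at 0.02 Gy, both against 0 Gy. For all genes past it these medians were 0.02 and 0.04. Mpo was at 5.29, 5.45 and 5.99 and Elane at 4.96, 5.89 and 5.08. The 9 measured markers did not all go the same way. All 7 markers past the minimum were above 0 at 2.5 Gy, against 53.4% of all genes, but Itgam by 0.01 only. Csf1r was lower at 0.02 Gy (4.85, 4.58 and 5.03). Ly6g (5.06, 4.33 and 4.21) and Cd14 (3.68, 3.62 and 3.64), with means below the minimum, were lower on both irradiated arrays. Elane, Itgam, Csf1r, Ly6g and Cd14 are named after their values were seen. All 6 megakaryocyte markers passed the minimum, and their mean was 6.42, 6.58 and 6.39. No defining marker is at 0, since these arrays give a value for every probe set, and the lowest was Ms4a1 at 2.67 to 2.75. The part of other cell types in the SOCS differences was not tested.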

How the data were processed

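Biotinylated cDNA was prepared with an Affymetrix whole-transcript kit and read on 3 arrays, per the labels' protocols. The table the authors deposited holds 1 log2 value per array for each of 25206 probe sets named by Entrez gene; the log2 scale was read from their range of 1.55 to 12.4. The submitters' processing notes name Partek, with neither version nor role; how background was corrected and arrays normalized is not stated in them or in the labels. Array medians were 4.60, 4.54 and 4.55 (0, 0.02 and 2.5 Gy). No scanner files were used, so signal over background is unknown, and the number of arrays limits the precision.

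The platform annotation named 23185 probe sets, 1 gene each, and left 2021 unnamed and unused. Differences were taken per gene in 3 comparisons; counts, medians and ranks used the 11593 genes with a mean of at least 4.553, the 50th percentile, and a fold size of 2. With 1 array per group no test was run. Members and lists were chosen with earlier results of these data known. Genes could be named if they were members, among the 4 of a list with the largest difference at 2.5 Gy against 0 Gy (any in lists of up to 8 genes), sort markers or the 3 nearest in pattern to Socs6; others are marked. Not every marker so allowed is named. Python 3.11.15, numpy 2.4.6, pandas 2.3.3 and statsmodels 0.14.6 (loess span 0.3) were used, and the counting was tested on simulated data. Alternatives were 3 scalings, 2 level minimums, 2 fold sizes, list means and, added later, the family without Socs6.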

Additional observations from a re-analysis of the deposited data

How the results depend on the processing

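No paired analysis was possible because no dose has more than 1 array. All 72 member differences under the 3 scalings shifted by less than 1 robust SD of the genes in the same level bin, a wide measure beside shifts this small. A list median was counted as moved when it changed by more than the members' robust SD divided by the square root of their number. For pathway lists 25 of 138 alternative medians moved; the cause was not tested.

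Of the family, the level minimum at the 75th percentile kept Socs2 and Socs5 alone, so the count at least 2-fold lower went from 1 to 0 in both comparisons with the 2.5 Gy array, and at a fold size of 3 it was 0 at 2.5 Gy against 0 Gy. With no level minimum the family median was −0.26 (2.5 against 0 Gy) and −0.050 (0.02 against 0 Gy). The mean of the 6 members past the usual minimum at 2.5 against 0.02 Gy was −0.39, against a median of −0.13. Without Socs6 the medians were −0.32, −0.17 and −0.10 (2.5 against 0, 0.02 against 0 and 2.5 against 0.02 Gy).

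The pathway medians that moved are grouped by setting. At the 75th percentile minimum, ligands were at 0.30, receptors at 0.23, ligase genes at 0.53 and STAT targets at 0.20 (0.02 against 0 Gy), receptors at 0.024 and ligase genes at 0.46 (2.5 against 0 Gy), and STAT genes at −0.092 and STAT targets at −0.24 (2.5 against 0.02 Gy). With no minimum, ligands were at 0.017, receptors at −0.0089 and ligase genes at 0.44 (2.5 against 0 Gy), and ligase genes at −0.0088 (2.5 against 0.02 Gy). With means, receptors were at 0.097 and STAT targets at 0.030 (0.02 against 0 Gy), STAT targets at 0.15 and other inhibitors at 0.044 (2.5 against 0 Gy), and receptors at 0.018 and other SOCS box genes at 0.14 (2.5 against 0.02 Gy). After quantile normalization other inhibitors were at 0.022 and −0.053, after median centring at 0.17 and 0.042 (0.02 and 2.5 against 0 Gy), and after loess at 0.0085 at 0.02 Gy. STAT targets were at 0.045 after median centring at 0.02 Gy, and JAK genes at 0.067 after loess at 2.5 Gy.

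Counts of all genes at least as far as the fold size, higher then lower, for 0.02 against 0, 2.5 against 0 and 2.5 against 0.02 Gy, were, with no minimum, 259/272, 218/148 and 284/231. With the 75th percentile minimum they were 94/56, 84/29 and 84/68. For a fold size of 1.5 they were 869/547, 704/399 and 666/657, and for 3 they were 20/37, 32/13 and 45/21. These follow from the setting itself, which fixes how many genes can be counted.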

Other observations

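The SOCS box is shared with other protein families, the ankyrin-repeat ASB, SPRY-domain SPSB, WD40-repeat WSB and RAB40 proteins, and 10 of 27 measured genes of these families passed the level minimum. Of these 10, 6 were above 0 and 4 below at 2.5 Gy against 0 Gy, with a median of 0.04, where the SOCS genes had 1 above and 5 below. Of all genes past the minimum, 53.4% were above 0. At 0.02 Gy against 0 Gy the 2 groups were alike. There 7 of the 10 were below 0, with a median of −0.12, and 4 of the 6 SOCS genes, with a median of −0.16. Of all genes past the minimum, 45.6% were below 0 in that comparison. Spsb4 was at 4.68, 4.28 and 5.31 (log2, unirradiated, 0.02 and 2.5 Gy). It was the 1 gene of the list at least 2-fold different between any pair of arrays (1.03 at 2.5 against 0.02 Gy). In that comparison 1.44% of all genes past the minimum were at least 2-fold higher. Spsb3 was at 5.01, 4.92 and 5.39. Asb7 was at 5.04, 4.58 and 4.37 and Asb14 at 5.01, 4.58 and 4.37, both highest on the unirradiated array.

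Nearness to Socs6 was the Euclidean distance between pairs of differences from the unirradiated array, which takes no account of level. The 3 nearest genes past the level minimum were Igkv4-78 (distance 0.12 on the log2 scale), Pramel34 (0.34) and Vaultrc5 (0.34). Igkv4-78 was at 5.54, 5.96 and 4.09, Pramel34 at 6.89, 7.08 and 5.71, and Vaultrc5 at 4.92, 5.19 and 3.75. The first 2 belong to families with near-identical copies, and how far their probe sets measure shared sequence was not tested. No JAK-STAT gene was among the 3, but 3 genes taken from 11593 are too few for this to tell anything about the pathway.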
